A study of Mus musculus with 7 samples.

Results

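The Hedgehog pathway genes described here are the ligand *Shh*, the receptor *Ptch1*, the coreceptors *Boc* and *Gas1*, the inhibitor *Hhip*, the transducer *Smo* and the transcription factors *Gli1*, *Gli2* and *Gli3*. They were chosen by name, as the rows of the gene count table that carry these 9 symbols among 48440 genes. Bulk RNA-seq was performed on 7 libraries of E16 mouse retina, each made from RNA of pooled retinas, to find how loss of the splicing regulator Ptbp1 in retinal progenitors alters gene expression. All libraries carried Chx10-Cre, a transgene in which Chx10 regulatory sequence drives Cre recombinase in retinal progenitors. The wildtype group (WT, Chx10Cre) was 1 library with no floxed *Ptbp1* allele, the heterozygous group (Het, Chx10Cre;Ptbp1lox/WT) was 3 libraries and the homozygous group (KO, Chx10Cre;Ptbp1lox/lox) was 3 libraries. Recombination removes the promoter and the first exon of *Ptbp1* in progenitors and their descendants, so cells of other origin, such as vessels, keep the gene. No group without Chx10-Cre was sequenced among these libraries, so an effect of the transgene alone is shared by all of them.

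Secreted Hedgehog ligand binds Ptch1, which otherwise holds Smo inactive, and active Smo lets the Gli proteins switch on target genes. Gli1 acts as an activator, while Gli3 is best known for a processed form that represses targets, and Gli2 is the main activator made from existing protein. In the embryonic retina Shh is secreted by newly formed ganglion cells and signals to neighbouring progenitors, where transcripts of *Gli1*, *Ptch1* and *Hhip* are raised by the signal and serve as its readout.

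In KO retina, transcripts of *Gli3* and *Ptch1* were higher than in Het, while *Shh*, the ligand, differed between them by less than the spread of its libraries. *Gli3* rose to 137% of the Het mean and *Ptch1* to 122%. The other 7 genes did not pass the test, by edgeR or by DESeq2, although *Gli1* and *Smo* had an unadjusted p under 0.05. Differential expression here means that edgeR's quasi-likelihood test gave a p, adjusted by the Benjamini-Hochberg method, under 0.05 and that the change was over 1.2-fold in either direction. By this rule 2 of the 9 genes were differentially expressed, both higher in KO. Of all 20019 genes tested, 7.22% were differentially expressed, 4.01% higher and 3.21% lower. All 9 genes passed the expression filter.

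The targeted gene follows the labels. Here and throughout, values across the Het libraries are those of Het1, Het2 and Het3, and values across the KO libraries those of KO1, KO2 and KO3, in this order. *Ptbp1* was at 381 CPM (counts scaled to library size with TMM factors) in WT, at 210, 219 and 234 CPM across the Het libraries, and at 27.9, 6.04 and 46.9 CPM across the KO libraries. Counts on genes summed to between 120593979 and 171117305 per library. Summed ganglion cell markers were lower in KO (4265 to 4895 CPM) than in Het (5305 to 5488 CPM), and summed progenitor markers were also lower (3671 to 3793 against 3875 to 4136 CPM). Both sums include genes that were differentially expressed. Without these, the 8 other progenitor markers overlapped (2619 to 2630 CPM in KO against 2608 to 2732 in Het) and the 12 other ganglion cell markers overlapped by a narrow margin (2402 to 2716 against 2714 to 2836 CPM). Het1 stood apart in markers of tissue around the retina, with 264 CPM of summed skeletal muscle markers against at most 6.60 CPM in the other 6 libraries. In bulk libraries such as these, fewer cells of a type and less RNA per cell cannot be told apart.

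*Shh* (ENSMUSG00000002633.4) lies on the minus strand of chromosome 5 from 28456815 to 28467256 in GRCm38. It encodes the secreted ligand. Its expression was 5.90 CPM in the WT library, 5.97, 6.85 and 5.65 CPM across the Het libraries, and 5.92, 6.23 and 5.96 CPM across the KO libraries. The Het2 library was the highest of the 7 and Het3 the lowest, so the KO values lay inside the Het range. These levels rest on 784 to 1015 counts per library. The log2 fold change of KO against Het was -0.03 (standard error 0.0924, 95% interval -0.25 to 0.19, edgeR adjusted p = 0.861). Without Het2 its sign turned, to 0.05. As a share of the summed ganglion cell markers, *Shh* made up 0.106% to 0.125% in Het and 0.127% to 0.140% in KO, so the groups did not overlap on this scale. The marker sum itself differed between the groups and held 5 differentially expressed genes. As a share of the 12 other markers the groups overlapped, since Het2 (6.85 of 2836 CPM) was above KO2 (6.23 of 2716 CPM).

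**Figure D1:**
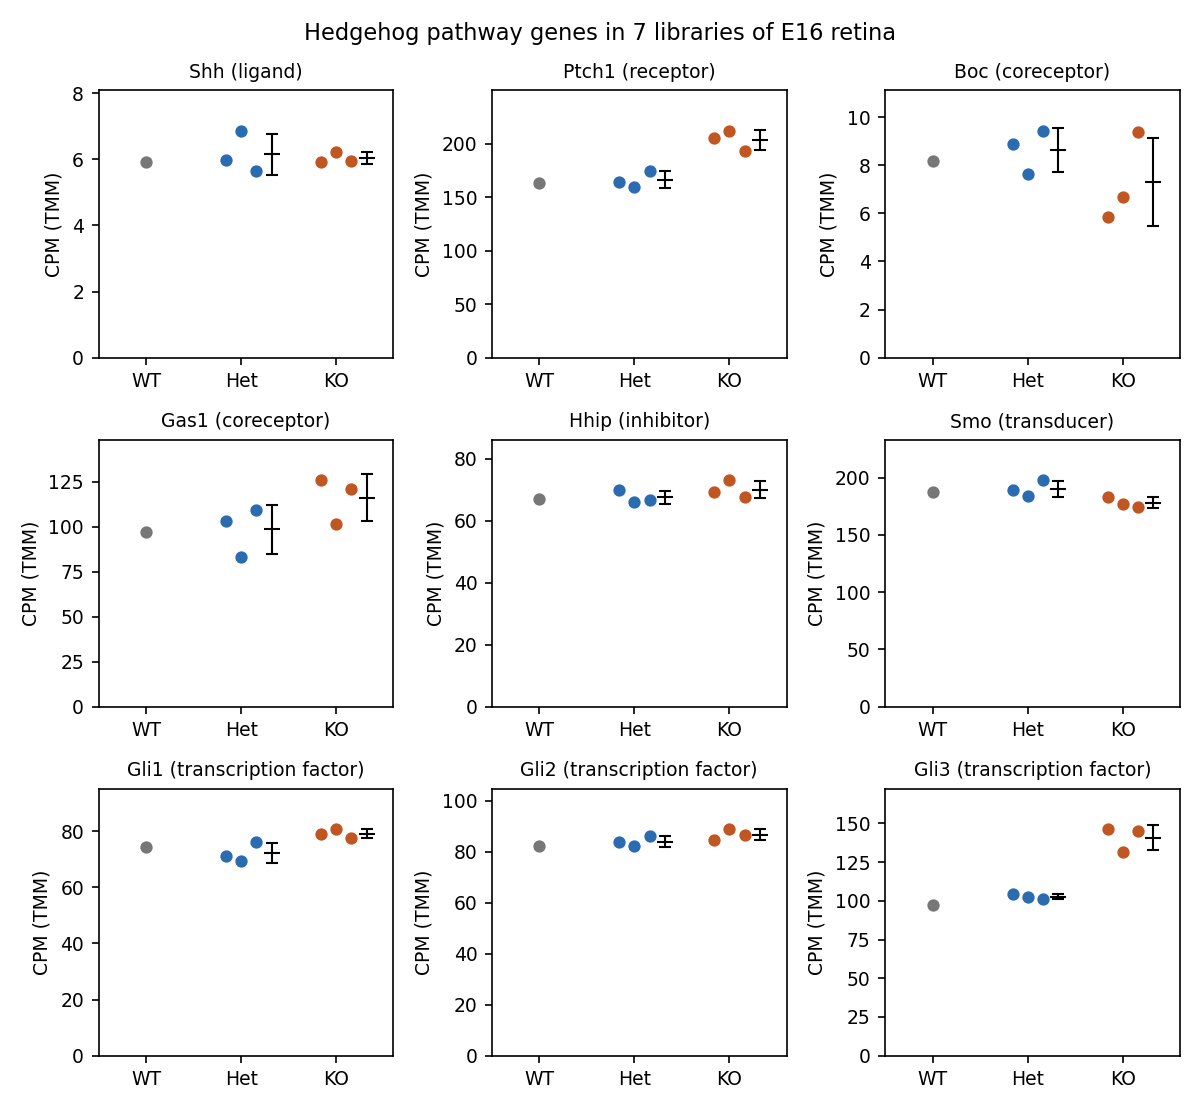
Expression of each of the 9 genes in every library, in CPM after TMM scaling on axes that start at 0. Points are libraries (grey WT, blue Het, orange KO) and the black bars give the mean and SD of the 3 Het and the 3 KO libraries. The KO points of Gli3 (131 to 146 CPM) and Ptch1 (194 to 212 CPM) lie above all Het points, and those of Shh lie among them.

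*Ptch1* (ENSMUSG00000021466.11; chromosome 13, 63508328 to 63573598, minus strand) encodes the receptor and is itself a transcriptional target of the pathway. It was at 164 CPM in the WT library, at 165, 160 and 175 CPM across the Het libraries, and at 206, 212 and 194 CPM across the KO libraries. The lowest KO library was above the highest Het library, and WT lay within the Het range. The mean was 166 ± 7.90 CPM in Het and 204 ± 9.21 CPM in KO (SD, n = 3 each). The log2 fold change was 0.29 (standard error 0.0489, 95% interval 0.17 to 0.41), with an edgeR adjusted p of 0.0179. The call depended on single libraries: without Het2 the adjusted p was 0.0783, and without KO2 it was 0.0654, each at a log2 fold change of 0.26. Without Het1, the library high in muscle markers, the log2 fold change was 0.28 (edgeR adjusted p = 0.0441).

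The sequence upstream of *Ptch1* is shown because it is the only pathway receptor that passed the test and its promoter is a textbook site of Gli control. RefSeq (GRCm38.p6) places the 250 bases before a *Ptch1* start at chr13:63565736-63565985, on the minus strand. They lie inside the span of the gene in the GENCODE annotation and share 0 bases with its annotated exons.

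Ptch1: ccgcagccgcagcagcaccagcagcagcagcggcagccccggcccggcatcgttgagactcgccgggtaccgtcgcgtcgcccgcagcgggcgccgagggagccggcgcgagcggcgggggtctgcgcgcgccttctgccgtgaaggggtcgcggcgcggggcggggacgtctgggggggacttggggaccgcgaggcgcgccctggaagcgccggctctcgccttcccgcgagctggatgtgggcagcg

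This stretch is 78.4% G and C and holds 41 CpG dinucleotides, with no TATAAA on the gene's strand. The Gli binding motif GACCACCCA, searched as written and as its reverse complement TGGGTGGTC with no base marked in capitals because none matched, was absent from the 300-base window around this start. It was also absent from the windows of *Gli2*, *Gli3*, *Smo*, *Hhip* and *Gas1*, so 0 of the 6 windows matched, and 0.253% of all 32851 RefSeq windows of this length hold it. *Shh*, *Gli1* and *Boc* had no entry in the table used. An absent match says only that these letters are not in this window.

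The coreceptors Boc and Gas1 bind Hedgehog ligand at the cell surface and pass it to Ptch1. *Boc* (ENSMUSG00000022687.11; chromosome 16, 44485049 to 44558897, minus strand) was at 8.19 CPM in the WT library, at 8.89, 7.61 and 9.41 CPM across the Het libraries, and at 5.86, 6.69 and 9.38 CPM across the KO libraries. KO1 and KO2 were below every Het library, whereas KO3 was close to the highest of them. The log2 fold change was -0.24 (standard error 0.182, 95% interval -0.68 to 0.19, edgeR adjusted p = 0.409). It depended on single KO libraries, at -0.46 without KO3 (edgeR adjusted p = 0.0641) and -0.10 without KO1 (edgeR adjusted p = 0.717). KO3 was also the highest KO library in markers of neighbouring eye tissue: its summed lens markers were at 45.3 CPM against 1.43 and 4.29 CPM in KO1 and KO2, and its summed pigment epithelium markers at 104 CPM against 34.0 and 25.8 CPM. Across the Het libraries these sums were 23.0, 59.0 and 81.0 CPM for lens and 652, 56.1 and 103 CPM for pigment epithelium. Neither sum followed the order of *Boc* across the Het libraries, but the lens sum did so across the KO libraries. The sum of 7 endothelial markers (those listed other than *Kdr*) followed it across the Het libraries (30.4, 20.3 and 40.1 CPM). Across the KO libraries (17.2, 13.9 and 27.5 CPM) it did not, although KO3 was again the highest. The part of such tissue in the *Boc* values was not tested.

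*Gas1* (ENSMUSG00000052957.7; chromosome 13, 60174405 to 60177365, minus strand) was expressed at 97.1 CPM in the WT library, 103, 82.9 and 109 CPM across the Het libraries, and 126, 101 and 121 CPM across the KO libraries. KO1 and KO3 stood above all Het libraries and KO2 lay between Het2 and Het1. The difference, a log2 fold change of 0.24 (standard error 0.121, 95% interval -0.05 to 0.52, edgeR adjusted p = 0.242), was within the spread between replicates. The interval reaches past the size of the change seen in *Gli3*.

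*Hhip* (ENSMUSG00000064325.4; chromosome 8, 79965851 to 80058006, minus strand) encodes a membrane protein that sequesters Hedgehog ligand, and like *Ptch1* it is induced by the signal. Its levels were 67.0 CPM in the WT library, 70.1, 66.2 and 66.6 CPM across the Het libraries, and 69.2, 73.1 and 67.8 CPM across the KO libraries. The Het and KO values were interleaved. At a log2 fold change of 0.05, its standard error was 0.0392 and its 95% interval -0.04 to 0.14 (edgeR adjusted p = 0.421), an interval whose upper bound is below the lower bound for *Ptch1*. The difference between these log2 fold changes was not itself tested.

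*Smo* (ENSMUSG00000001761.7; chromosome 6, 29735503 to 29761365, plus strand) encodes the membrane protein that carries the signal into the cell. It was at 187 CPM in the WT library, at 189, 184 and 198 CPM across the Het libraries, and at 183, 177 and 174 CPM across the KO libraries. All KO libraries were below all Het libraries, with KO1 and Het2 almost level. The KO mean of 178 ± 4.64 CPM was 93.6% of the Het mean of 190 ± 6.84 CPM (SD, n = 3 each). *Smo* did not pass the test, at a log2 fold change of -0.10 (standard error 0.0377, 95% interval -0.19 to -0.0055, edgeR adjusted p = 0.149).

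*Gli1* (ENSMUSG00000025407.6; chromosome 10, 127329882 to 127341974, minus strand) encodes the activator whose transcript is the most widely used readout of Hedgehog signalling. Its expression was 74.5 CPM in the WT library, 71.2, 69.4 and 76.2 CPM across the Het libraries, and 79.0, 80.7 and 77.5 CPM across the KO libraries. The KO libraries were above the Het libraries without overlap, but Het3 came near the lowest KO library. The mean went from 72.3 ± 3.54 CPM in Het to 79.1 ± 1.62 CPM in KO (SD, n = 3 each). This log2 fold change of 0.13 had a standard error of 0.0409 and a 95% interval from 0.03 to 0.23, and its edgeR adjusted p was 0.0899. The whole interval lies under the 1.2-fold limit.

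*Gli2* (ENSMUSG00000048402.14; chromosome 1, 118834132 to 119053619, minus strand) was at 82.4 CPM in the WT library, at 83.7, 82.0 and 86.0 CPM across the Het libraries, and at 84.7, 88.8 and 86.6 CPM across the KO libraries. The groups overlapped through Het3 and KO1. Its log2 fold change of 0.05 had a standard error of 0.0316 and a 95% interval from -0.03 to 0.12 (edgeR adjusted p = 0.362).

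*Gli3* (ENSMUSG00000021318.15; chromosome 13, 15463235 to 15730026, plus strand) was at 97.3 CPM in the WT library, at 104, 103 and 101 CPM across the Het libraries, and at 146, 131 and 145 CPM across the KO libraries. The Het libraries lay within a few CPM of each other just above WT, and every KO library was well above them, KO2 the least. The mean was 103 ± 1.38 CPM in Het and 141 ± 8.33 CPM in KO (SD, n = 3 each). This gave a log2 fold change of 0.46 (standard error 0.0463, 95% interval 0.34 to 0.57), with an edgeR adjusted p of 0.00547. It stayed differentially expressed when each Het or KO library was left out in turn, at log2 fold changes from 0.43 to 0.50. The value without Het1 was 0.47 (edgeR adjusted p = 0.0137).

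**Figure D2:**
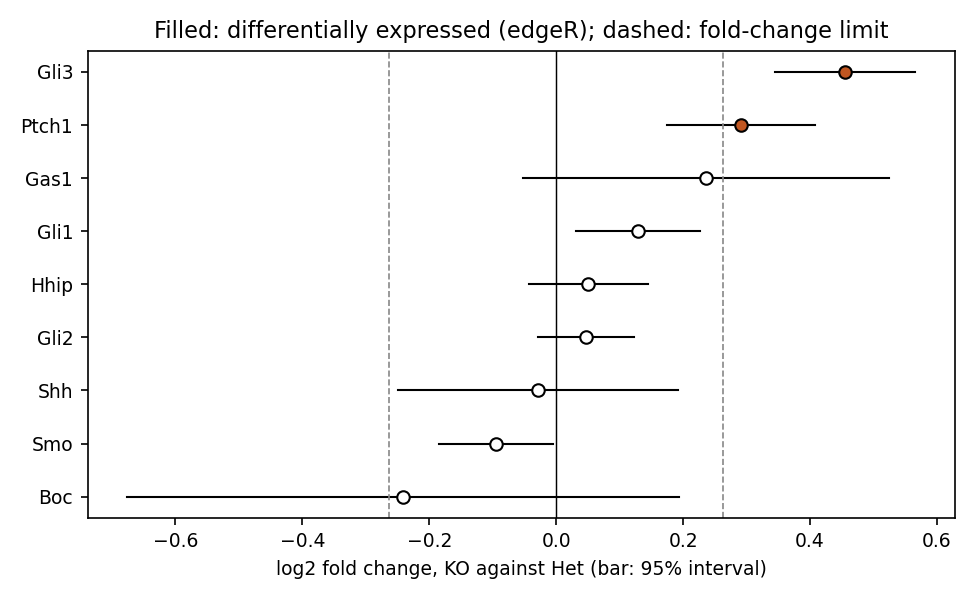
Log2 fold change of KO against Het for the 9 genes (points) with its 95% interval (bars), from edgeR's quasi-likelihood fit. Dashed lines mark a 1.2-fold change in either direction and filled points are differentially expressed. Gli3 (0.46) and Ptch1 (0.29) are filled, Gli1 (0.13) and Smo (-0.10) have intervals on one side of 0, and the intervals of Shh, Boc, Gas1, Hhip and Gli2 contain 0.

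Of the 9 genes, 6 had a positive and 3 a negative log2 fold change, with a median of 0.05 beside a median of -0.0047 over all genes tested. Values in Het and KO did not overlap for 4 of them (*Ptch1*, *Gli1* and *Gli3* above, *Smo* below), 44.4% of the members where 36.3% of all genes tested did not overlap (18.6% with KO above and 17.7% with KO below). An exact two-sided permutation test of 3 libraries against 3 has 0.1 as its smallest p, the value all 4 reached. The single WT library allowed no test. WT lay within the range of the Het libraries for 8 of the 9 genes and below it for *Gli3*. The Het mean ranged from 97.1% of WT for *Gli1* to 106% for *Gli3*. The KO mean stood at 145% of WT for *Gli3*, 125% for *Ptch1*, 119% for *Gas1*, 106% for *Gli1*, 105% for *Gli2*, 104% for *Hhip*, 102% for *Shh*, 95.2% for *Smo* and 89.2% for *Boc*.

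The genes were ordered by level after dividing CPM by exon length in kb, taking every annotated exon base of a gene once. In Het, *Smo* (33.9 CPM per kb) and *Gas1* (33.3) were the most abundant and overlapped each other. *Gli1* (14.5), *Gli2* (12.2), *Ptch1* (11.7) and *Gli3* (10.7) followed, of which *Gli2* and *Ptch1* overlapped. *Hhip* (7.45) stood apart below them, and *Shh* (2.16) and *Boc* (1.94) were lowest and overlapped. WT had the same order.

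In KO the order per kb of exon differed in the ranks of *Gas1* and *Gli3*. *Gas1* (39.2 CPM per kb) was above *Smo* (31.7) in all KO libraries. *Gli1* (15.8) came next, then *Gli3* (14.7) and *Ptch1* (14.4), which overlapped, and then *Gli2* (12.6). *Hhip* (7.72), *Shh* (2.12) and *Boc* (1.64) kept their places. The choice of length mattered for *Ptch1*, whose annotated exons hold much sequence outside its longest coding transcript. Divided by the length of that transcript, *Ptch1* was at 21.6 CPM per kb in Het and 26.4 CPM per kb in KO and stood above *Gli1*, and *Smo* was then first in every group.

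**Figure D3:**
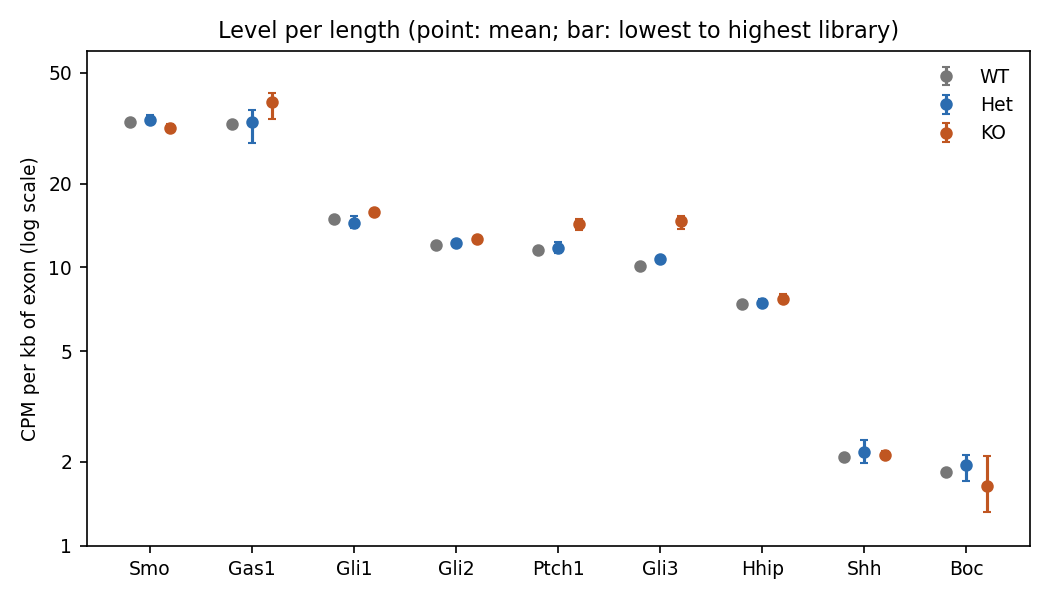
Level of each gene in CPM per kb of exon on a log axis, in order of the Het mean. Points are group means (WT is 1 library) and bars run from the lowest to the highest library of the 3. Smo and Gas1 lie near 33 in Het, Shh and Boc near 2, and Gli3 in KO (14.7) sits beside Ptch1 (14.4).

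Ratios between genes of the same library do not depend on how libraries are scaled. The ratio of *Gli3* to *Gli2*, both per kb of exon, was 0.847 in WT, 0.891, 0.896 and 0.844 across the Het libraries, and 1.24, 1.06 and 1.20 across the KO libraries. All KO libraries were above all Het libraries. The mean ratio was 0.877 ± 0.0287 in Het and 1.17 ± 0.0936 in KO (SD, n = 3 each). Per kb of the longest coding transcript the ratio was 0.957 to 1.02 in Het and 1.20 to 1.40 in KO. *Gli3* was thus above *Gli2* in every KO library with either length. In Het the mean of *Gli2* was the higher with either length. By the longest coding transcript *Gli3* was slightly above *Gli2* in Het1 (ratio 1.01) and Het2 (1.02).

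Ratios among the ligand and readout genes were mixed. *Ptch1* over *Gli1* was 0.774 in WT, 0.815, 0.809 and 0.809 across the Het libraries, and 0.917, 0.924 and 0.880 across the KO libraries, with all KO libraries above all Het libraries. *Gli1* over *Shh* was 7.19 in WT, 6.79, 5.78 and 7.69 across the Het libraries, and 7.61, 7.38 and 7.41 across the KO libraries. Here the groups overlapped, and the Het libraries were spread far more widely than the KO libraries. *Ptch1* over *Shh* averaged 5.48 ± 0.775 in Het and 6.78 ± 0.231 in KO (SD, n = 3 each) without overlap, and *Hhip* over *Gli1* overlapped.

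**Figure D4:**
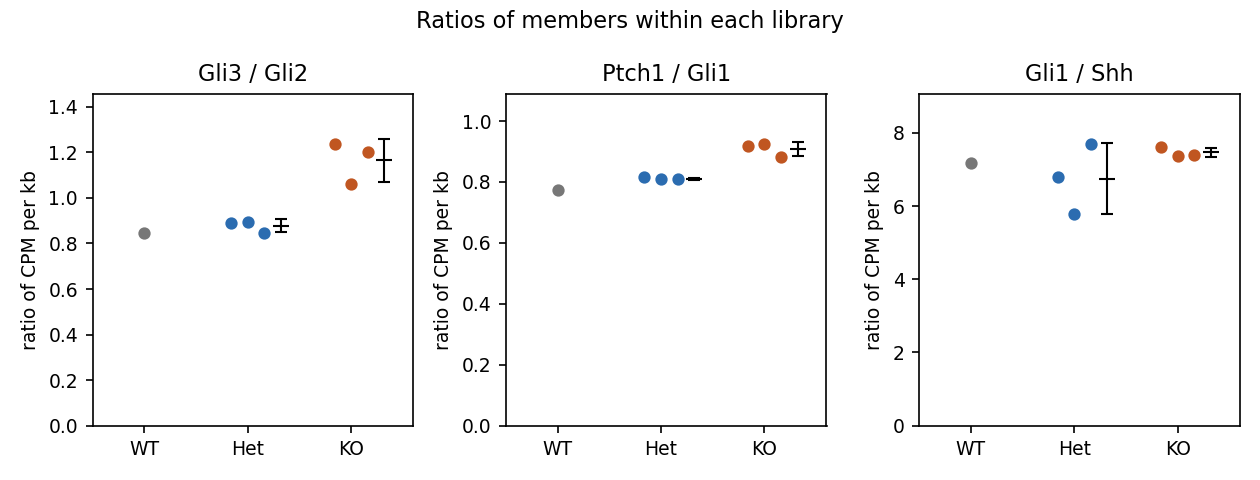
Ratios of CPM per kb of exon within each library for Gli3 to Gli2, Ptch1 to Gli1 and Gli1 to Shh. Points are libraries and black bars give the mean and SD of 3 libraries, on axes that start at 0. The KO points lie above all Het points for Gli3 to Gli2 (1.06 to 1.24 against 0.844 to 0.896) and Ptch1 to Gli1, and overlap with them for Gli1 to Shh.

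As shares of the summed markers of progenitors, in which the signal is received, *Gli1*, *Ptch1* and *Gli3* did not overlap between Het and KO. *Gli1* made up 1.70% to 1.84% of that sum in Het and 2.04% to 2.15% in KO. *Ptch1* made up 3.92% to 4.25% in Het and 5.11% to 5.60% in KO, and *Gli3* 2.45% to 2.69% and 3.47% to 3.98%. The denominator is not neutral, since 4 of its 12 genes were differentially expressed: *Fgf15* (log2 fold change -0.49) and *Sfrp2* (-1.05) were lower and *Notch1* (0.29) and *Hes5* (0.32) higher in KO. As shares of the 8 other markers the groups also did not overlap: *Gli1* stood at 2.58% to 2.79% in Het and 2.95% to 3.07% in KO, *Ptch1* at 5.92% to 6.41% and 7.39% to 8.05%, and *Gli3* at 3.71% to 3.99% and 4.99% to 5.58%.

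Across the 7 libraries, *Ptch1* varied together with *Gli1* (Pearson's r = 0.92 on log2(CPM + 1)) and with *Gli3* (r = 0.889), and *Gli1* with *Gli2* (r = 0.817). *Shh* showed no positive correlation with its readouts, at r = -0.47 with *Gli1*, r = -0.211 with *Ptch1* and r = -0.0186 with *Hhip*. These values are descriptions over 7 points that hold 3 genotypes, so a gene that differs between genotypes correlates with any other that does. Of the 13749 genes compared, the 5 whose pattern was most like that of *Shh* were *Zfpm2* (r = 0.941), *Rgs20* (0.911), *Med8* (0.910), *Rpusd2* (0.897) and *Inpp1* (0.893), each highest in Het2. The 5 most like *Gli1* were *Rundc3b* (r = 0.979), *Cdk6* (0.970), *Adam22* (0.969), *Josd1* (0.961) and *Bbs1* (0.957). Among these, *Cdk6*, a G1 cyclin-dependent kinase, and *Adam22* were differentially expressed and higher in KO, with log2 fold changes of 0.89 (edgeR adjusted p = 0.0188) and 0.53 (edgeR adjusted p = 0.0322). For *Cdk6* the values were 64.5 CPM in the WT library, 48.7, 47.5 and 70.2 CPM across the Het libraries, and 98.1, 111 and 99.8 CPM across the KO libraries, so Het3 was again the Het library nearest to KO. Without the WT library, 1 of the 5 genes (*Zfpm2*) stayed on the list for *Shh*. On that for *Gli1* 3 of the 5 stayed (*Rundc3b*, *Josd1* and *Bbs1*), while *Cdk6* and *Adam22* dropped out. Over the 7 libraries 92 genes had r over 0.9 with *Gli1* and 3 with *Shh*, so the 5 most like *Gli1* are the top of a long list.

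A further 45 genes of the pathway, listed by role, were all tested. By edgeR 0 passed as differentially expressed, with 15 at an unadjusted p under 0.05 where 29.7% of all genes tested were. DESeq2 called 2 of them, *Stk36* and *Efcab7*, both lower. Of the 45 log2 fold changes 16 were positive and 29 negative, with a median of -0.05, and in 17 genes the groups did not overlap, a share near the 36.3% of all genes tested. By adjusted p alone, without the fold-change limit, 5 passed, where 11.1% of all genes tested did. These were *Foxm1* (log2 fold change 0.22), *Disp1* (-0.23), *Iqce* (-0.23), *Bcl2* (-0.19) and *Spop* (-0.17), and they were picked out after their values were seen.

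The other ligands were almost absent. *Dhh* was at 0.209 ± 0.0253 CPM in Het and 0.247 ± 0.0292 CPM in KO (SD, n = 3 each) and *Ihh* at 0.118 and 0.103 CPM. Of the genes that release ligand from the cell, *Scube3*, the most abundant, was at 204 ± 4.03 CPM in Het and 191 ± 9.35 CPM in KO (log2 fold change -0.10, edgeR adjusted p = 0.18). *Disp1*, the transporter that exports lipid-bearing ligand, was at 22.9, 22.5 and 23.0 CPM across the Het libraries and at 18.9, 20.4 and 19.1 CPM across the KO libraries, with all KO libraries below. Its adjusted p was 0.0278 by edgeR, and its log2 fold change of -0.23 was short of the limit.

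Among the other receptors and coreceptors, *Cdon*, a coreceptor related to Boc, was at 163, 188 and 196 CPM across the Het libraries and at 138, 153 and 216 CPM across the KO libraries. Its KO3 library was the highest of the KO group, as it was for *Boc*, and the groups overlapped (log2 fold change -0.11, edgeR adjusted p = 0.689).

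The 8 regulators of Smo had a median log2 fold change of -0.09 and the 16 regulators of Gli proteins a median of -0.05. *Csnk1a1*, a kinase that phosphorylates Gli proteins, was at 457 ± 6.72 CPM in Het and 432 ± 3.05 CPM in KO (log2 fold change -0.08, edgeR adjusted p = 0.118), and over the 7 libraries its mean CPM was level with that of another kinase gene, *Gsk3b*, at 457 ± 11.5 and 438 ± 18.7 CPM (log2 fold change -0.06, edgeR adjusted p = 0.365). *Sufu*, which holds Gli proteins inactive in the cytoplasm, was at 80.8 ± 2.22 and 77.9 ± 1.62 CPM (log2 fold change -0.05, edgeR adjusted p = 0.316). *Stk36* was the nearest to a call by edgeR, at a log2 fold change of -0.29 and an adjusted p of 0.0502.

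Among 10 genes reported as Hedgehog targets in various tissues, the cyclin gene *Ccnd1* was by far the most abundant. It was at 2886, 2872 and 2912 CPM across the Het libraries and at 3290, 3078 and 2944 CPM across the KO libraries. The KO libraries were above the Het libraries, KO3 only just (log2 fold change 0.10, edgeR adjusted p = 0.243). *Foxm1*, a regulator of genes of mitosis, was at 118 ± 1.03 CPM in Het and 138 ± 4.62 CPM in KO (log2 fold change 0.22, edgeR adjusted p = 0.0126, short of the fold-change limit). *Mycn* was at 132 ± 0.558 and 131 ± 2.09 CPM. The log2 fold changes furthest below 0 in this role, down to -2.04, belonged to genes under 1 CPM or with uneven libraries (*Foxf2*, *Foxf1*, *Nkx2-2* and *Ccnd2*), and none passed the test.

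**Figure D5:**
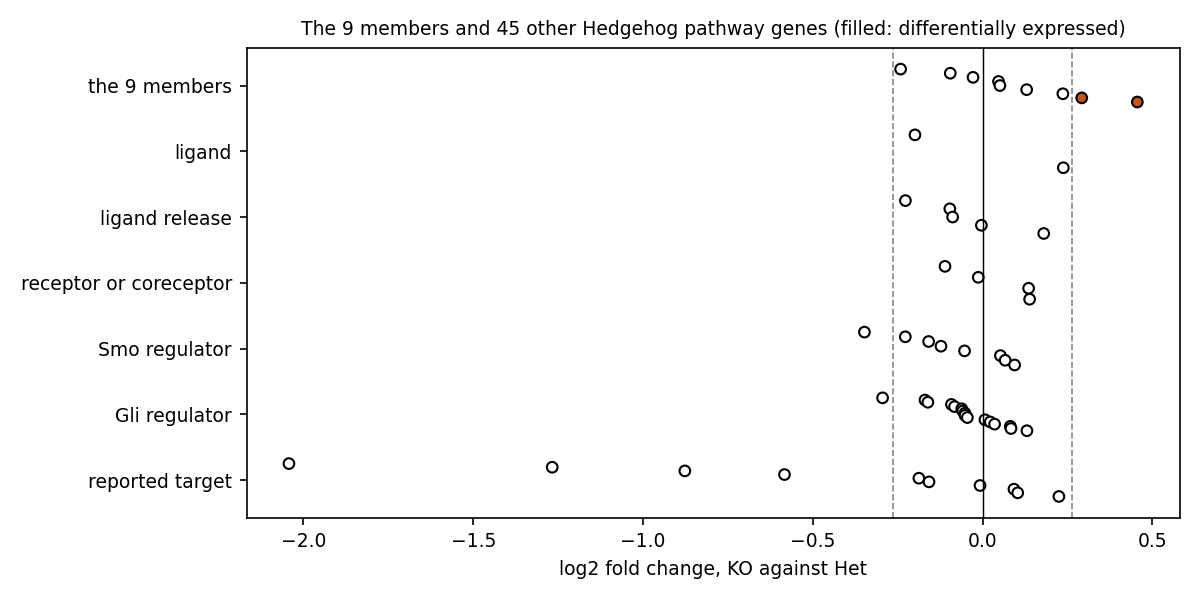
Log2 fold change of KO against Het for the 9 genes and for 45 other pathway genes by role. Each point is a gene, spread vertically within its row for visibility, dashed lines mark a 1.2-fold change and filled points are differentially expressed. The filled points are Ptch1 and Gli3, and of the points left of the lower limit the 4 furthest are low or uneven targets.

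Markers of the cells that send and receive the signal were measured in the same libraries. Of 17 ganglion cell markers, 2 were higher in KO: *Thy1* (log2 fold change 0.99) and *Nefh* (0.54). The 3 lower in KO were *Isl1* (log2 fold change -0.68), *Gap43* (-0.42) and *Tubb3* (-0.35). *Ebf3* (-0.30, edgeR adjusted p = 0.0503) and *Pou4f2* (-0.29, edgeR adjusted p = 0.0524) were just short of a call. Of the 17 log2 fold changes 6 were positive and 11 negative. An unadjusted p under 0.05 was found for 12 of them, where 29.7% of all genes tested had one. DESeq2 called 2 higher and 6 lower. Of 12 genes of proliferation, 0 were differentially expressed by edgeR or DESeq2 and 3 had an unadjusted p under 0.05, while 11 had a positive log2 fold change. *Top2a* was at 896 ± 27.5 and 932 ± 23.1 CPM and *Mki67* at 769 ± 46.3 and 824 ± 5.32 CPM in Het and KO (SD, n = 3 each). Of 12 photoreceptor precursor markers 8 were higher in KO, among them *Rbp3*, *Neurod1*, *Prdm1* and *Gngt2*.

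Markers listed for cells that Chx10-Cre does not reach were also measured, and few were differentially expressed by edgeR. Of 8 endothelial markers *Kdr* was higher in KO (log2 fold change 0.44), but it is also known from retinal progenitors, and 6 of the 8 had a negative log2 fold change, with a median of -1.59. The other 7 markers summed to 20.3 to 40.1 CPM in Het and 13.9 to 27.5 CPM in KO, which overlapped. DESeq2 called 1 of them lower, edgeR 4 with the replicate number as a block and 6 without KO3. Of 6 astrocyte and optic stalk markers *Gfap* and *S100b* were higher in KO. The 6 summed to 26.3 to 32.7 CPM in Het and 32.4 to 40.0 CPM in KO, which overlapped. Of the periocular mesenchyme (11 genes, led by *Col1a2* and *Col1a1*), pigment epithelium (9, led by *Pmel* and *Trpm1*), skeletal muscle (10, led by *Myh3* and *Acta1*) and lens (7, led by *Cryaa* and *Cryba1*) lists, 0 genes were differentially expressed by edgeR, with 2, 3, 7 and 1 at an unadjusted p under 0.05. All tested genes of the first 3 of these lists had a negative log2 fold change, with medians of -2.05, -2.52 and -5.76. Without Het1 these medians were -0.18, -0.45 and 0.03. For lens 4 of 6 tested genes were negative. DESeq2 called 2 mesenchyme genes, 1 lens gene and none of the other lists. Without KO3, edgeR called 2 pigment epithelium and 3 lens genes lower. *Gli1*, *Ptch1*, *Gas1* and *Gli3* are also known from mesenchyme and glia, and the part of such cells in their levels was not tested. Without Het1, whose summed mesenchyme markers stood at 431 CPM against 16.7 to 57.6 CPM in the other 6 libraries, *Ptch1* and *Gli3* were still differentially expressed.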

How the data were processed

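Stranded mRNA libraries were prepared from pools of E16 retinas. Per the labels and the study's methods, STAR alignment to GRCm38 (mm10) was followed by featureCounts, and the authors deposited its raw counts by gene, not normalized. Whether counting used strand, and what was done with multi-mapping reads, is not given in the sources used here, so reads shared with overlapping genes of the other strand cannot be told apart. The labels name TRIzol for RNA extraction and the methods a column kit.

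The test was edgeR's (version 4.0.16, R 4.3.3). The filterByExpr function kept 20019 of 48440 genes, and TMM factors ran from 0.988 to 1.03. One quasi-likelihood fit of the 7 libraries, with 1 coefficient for each of the 3 groups, gave KO against Het at a biological coefficient of variation of 21.5%. Benjamini-Hochberg adjustment covered every tested gene. A standard error is the size of the log2 fold change over the square root of F, and its 95% interval uses the t distribution. DESeq2 1.42.0 was an alternative. On counts simulated for KO against Het with 200 genes changed 2.83-fold, edgeR recovered 200 with 8 false calls among 19393 genes tested and DESeq2 200 with 29 among 20019. The simulated counts had a lower dispersion than the data and larger changes than those of *Gli3* and *Ptch1*. They therefore do not show how often changes of that size would be found.

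No pair of replicates was a copy (chi-square per degree of freedom 14.0 to 53.2). The labels do not tie a library to single animals, so p-values measure the spread between pools. Intervals cover the spread between libraries. Counting alone gives a coefficient of variation of 3.57% for *Shh* at its lowest count, above the 2.83% of its KO libraries. For *Ptch1* it gives 0.725%, well below the 4.75% of its Het and 4.52% of its KO libraries.

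Positions and lengths come from GENCODE for GRCm38, and promoter windows from RefSeq. The members and gene lists were chosen with earlier results of these data known. The genes named are all members, called pathway genes, the most abundant gene of each pathway role, up to 4 called (or the 2 most abundant) markers per list, and the 5 genes most like *Shh* and *Gli1* (mean of at least 1 CPM). *Sufu*, *Mycn*, *Nefh* and the genes nearest a call were added after their values were seen. Results of some listed genes are not reported here. Alternatives are upper-quartile or RLE scaling, testing unfiltered genes, a minimum of 10 counts per library, Het and KO alone, the replicate number as a block, adjusted p alone, glmTreat and leaving out each library. Length by longest coding transcript and marker sums without differentially expressed genes were added after seeing the data.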

Additional observations from a re-analysis of the deposited data

How the results depend on the processing

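*Gli3* was differentially expressed in 14 of the 15 alternatives and *Ptch1* in 12, and 0 of the other 7 Hedgehog genes were in any. Under glmTreat, which tests against the fold-change limit itself, 0 of the 9 passed, and leaving out 1 library in turn 1 to 2 did: *Ptch1* was lost without Het2 and without KO2. Over all genes, 1445 were called, 2221 by adjusted p alone, 217 by glmTreat and 386 (without Het2) to 1674 (without KO3) leaving out 1 library, with 496 without Het3 and 612 without KO2. Of the 45 other pathway genes, 0 were called, 2 by DESeq2, 5 by adjusted p alone, 0 to 2 leaving out 1 library, and 1 (*Stk36*) each under RLE scaling, a minimum of 10 counts per library, the unfiltered table, Het and KO libraries alone and the replicate block. Of the marker genes 20 were called, 4 by glmTreat and 3 (without Het2) to 30 (without KO3) leaving out 1 library, with 7 without Het3. The log2 fold change of *Shh* ran from -0.087 (without Het3) to 0.0545 (without Het2, reversed, edgeR adjusted p = 0.731). The causes were not tested.

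The replicate numbers are not stated to pair the libraries, and the deviations of same-numbered libraries from their group means correlated at -0.12, 0.256 and 0.0188. With the replicate block the pairing left 2 Hedgehog genes called (*Ptch1* adjusted p = 0.0461 and *Gli3* adjusted p = 0.0127 by edgeR), 1268 genes in all, 1 other pathway gene and 25 markers. *Gas1* then had an adjusted p of 0.0334 by edgeR at a log2 fold change of 0.24, short of the fold-change limit.

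With 1 WT library, Het against WT could not be tested. For *Shh*, a counting error of 3.57% at the lowest count was above the 2.83% coefficient of variation of the KO libraries, so depth bears on its precision.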

Other observations

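Genes of the other strand overlap some Hedgehog genes, and their levels bear on how far shared reads could reach. The exons of *Shh* share 446 bases with *9530036O11Rik* (0.0923 to 0.188 CPM in the 7 libraries) and 361 bases with *Gm26894* (0.21 to 0.383 CPM). *Gli3* shares 188 bases, 1.96% of its exon sequence, with *Gm6556*. That gene was at 3.52 CPM in the WT library, at 4.31, 3.94 and 3.84 CPM across the Het libraries, and at 6.08, 5.13 and 4.77 CPM across the KO libraries, so all KO libraries were above all Het libraries, as for *Gli3* itself. *Gas1* shares 589 bases, 19.9% of its exon sequence, with *Gm48488*, which was not analysed here.

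The 10 nearest tested genes on each side of each Hedgehog gene were also counted, a view added after seeing the data. *Gli3* had 1 neighbour called of 20 (*Gm26645*, higher) with a median log2 fold change of -0.03, and *Ptch1* had 1 (*Ctsl*, lower) with a median of -0.05. Over all 9 genes, 0 to 3 of the 20 neighbours passed (0% to 15%), where 7.22% of all genes tested did. The highest number was at *Smo*. These shares were not tested against that of all genes. *Gli1* had 1 (*Tmem194*, higher), and its neighbours' median of 0.19 was above its own log2 fold change of 0.13.

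Over the 7 libraries, the 3 genes most like *Gli1* in pattern were *Rundc3b*, *Cdk6* and *Adam22*. Of these only *Rundc3b* stayed among the 5 most alike without the WT library. All 3 lie near each other on chromosome 5, from 3341485 for *Cdk6* to 8622952 for *Rundc3b* in GRCm38, away from *Gli1* on chromosome 10. All were lowest in Het1 and Het2 and higher in Het3, with *Adam22* at 60.5 CPM in the WT library, 49.9, 50.2 and 66.9 CPM across the Het libraries and 81.2, 81.4 and 79.2 CPM across the KO libraries. This was noticed in the data and no cause was tested.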
